A study of Mus musculus with 6 samples.

Results

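The complement and coagulation genes form a list of 51 genes of the blood's protein defence and clotting cascades. They were chosen by gene symbol, but with earlier results of these data known, so the choice was not blind to the data. Of these, 49 had at least 1 probe set, 75 in all, that the array annotation names by that symbol alone, among 18194 genes so named on the array. C3 and C4b had none and were not analysed here. Complement holds 25 of the listed genes (23 read by a probe set), clotting 22 and fibrinolysis 4, all of them read.

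RNA came from colon and from liver of male C57BL6/J mice, aged 7 weeks, and was read on Affymetrix mouse expression arrays. The DSSPAR mice ate a basal diet with 2% parsley throughout and, after 7 days of plain water, drank 1.5% dextran sodium sulphate for 9 days; this sulphated sugar damages the lining of the colon and brings on colitis. The DSS mice ate the plain basal diet and drank the same 1.5% solution after 7 days of water, for 10 days by their treatment protocol (the growth protocol gives 9), so diet and 1 day of exposure cannot be told apart. The CON mice had basal diet and water alone. Each array held RNA pooled from the 7 mice of a group, with 1 array per group and tissue. Every difference below therefore compares 2 pools and has no replicate check; no p-value can be given, and precision is limited by how few arrays there are. The 3 comparisons within a tissue share arrays, each array entering 2 of them, so their values are not independent.

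Complement is a set of plasma proteases and their cell receptors that mark microbes and damaged cells. It is started by C1q bound to antibody, by mannose-binding lectins bound to sugars, or by its own alternative loop, and all routes meet in a terminal complex that punctures membranes. Clotting runs from tissue factor or from the contact system to thrombin, which turns fibrinogen into fibrin, and plasmin dissolves the fibrin again. Hepatocytes secrete most of these plasma proteins, whereas C1q comes mainly from macrophages and von Willebrand factor from endothelium and megakaryocytes.

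Values are intensities on a linear scale, and the tissues are given apart because their arrays were scaled apart. The floor, under which a value was raised to it, is the median over all values of the 3 arrays of a tissue, 25.1 in colon and 96.6 in liver. A gene was measured in a comparison if at least 1 of the 2 arrays lay above the floor, and a fold against an array under it is written "at least". A member counts as higher or lower past 2-fold. The 2 brightest probe sets of a gene differed in their log2 ratios with a robust SD of 0.34 to 0.40 in colon and 0.42 to 0.51 in liver, depending on the comparison, which serves here as the spread of a log2 ratio; it leaves out differences between mice and between arrays. All 12 colonic epithelium markers lay above the floor in colon and all 12 hepatocyte markers in liver. In colon 8 of the 12 hepatocyte markers lay above the floor on at least 1 array, and Alb, Apoa1, Serpina1b and Ahsg on none. In liver 5 of the 12 colonic epithelium markers lay above the floor on at least 1 array. The log2 ratio of the array medians lay below 0 throughout: in colon -0.084 (DSS to CON), -0.20 (DSSPAR to DSS) and -0.28 (DSSPAR to CON), and in liver -0.15, -0.16 and -0.31 in the same order. Among probe sets above the floor on all 3 arrays of a tissue the median ratio stayed between -0.04 and 0.01.

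In colon, by the probe set read for each gene, 23 of the 49 genes lay above the floor on at least 1 array, and 26 did not on any. Those 26 are liver-made plasma proteins and the urokinase gene Plau. They hold the lectin pathway genes Mbl1, Mbl2, Masp1 and Masp2, all 6 terminal pathway genes and all 3 fibrinogen chains. The others are prothrombin (F2), F5, F7, F9 to F12, F13b, the contact system genes Klkb1 and Kng1, protein C (Proc) and plasminogen (Plg). Another probe set of Masp1 passed the floor in CON alone, at 31.5. What colon did express above the floor included C1q and its proteases, the alternative pathway starters, receptors, membrane inhibitors and vessel wall genes. The plasma inhibitor C4bp, F13a1 and Tfpi2 also lay above it on all colon arrays. C5ar1 passed the floor in DSS alone, Cfi in CON alone and Proz in DSSPAR alone, so these 3 had to differ in the comparisons they entered.

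In colon, setting DSS beside CON asks what the colitis did to these genes in the injured tissue. Of 22 members measured, 9 were at least 2-fold higher in DSS, where 5.18% of 11952 genes were, and 1 was lower, where 1.97% of genes were. Complement gave 5 of its 13 measured members on the higher side and none lower, clotting 2 of 7 higher and 1 lower, and fibrinolysis both of its measured members higher. The median log2 ratio was 0.76 over the 22 members, 0.75 over complement and 0.57 over clotting, against 0.04 over all genes. By the probe set spread of 0.38, 15 members lay above and 1 below, which is 72.7% of the members, against 38.3% of all genes.

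The 3 chains of C1q, the molecule that starts the classical pathway, were the highest. C1qa had an intensity of 652 in DSSPAR, 789 in DSS and 169 in CON, C1qb 677 in DSSPAR, 570.2 in DSS and 175 in CON, and C1qc 263 in DSSPAR, 314 in DSS and 80.4 in CON. Both colitis arrays stood far above CON for each chain and close to each other. Against CON, the chains were 4.66-fold, 3.26-fold and 3.91-fold higher in DSS, in the order C1qa, C1qb and C1qc, and 3.85-fold, 3.88-fold and 3.27-fold higher in DSSPAR. All 3 probe sets of C1qb lay on the same side, at log2 ratios of 1.37 to 2.09 in DSS against CON. In tissue RNA, more cells of a type and more RNA per cell cannot be told apart.

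Macrophage markers moved with C1q in the same arrays. Of 10 such markers, none of them a member, 9 were at least 2-fold higher in DSS than in CON and 8 in DSSPAR, and none was under the floor on all arrays. Their summed intensity was 5392 in DSSPAR, 5857 in DSS and 1693 in CON, and their part in the C1q values was not tested. Of 8 exocrine pancreas markers on the array, 7 were above the floor in the DSS colon alone. Those 7 lay under the floor in DSSPAR and in CON. Their part in the C1q values was not tested.

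Of the other measured classical pathway genes, C1ra stood lower in DSSPAR than in DSS by more than the probe set spread of 0.34. Its log2 ratio was -0.81. C2, at -0.28, lay inside that spread and close to C1qa (-0.28) and C1qc (-0.26). C1ra, the protease that C1q activates, had 158 in DSSPAR, 277 in DSS and 85.7 in CON. It was 3.24-fold higher in DSS than in CON, 1.85-fold higher in DSSPAR than in CON and 1.75-fold lower in DSSPAR than in DSS. C2, which supplies the protease of the classical C3 convertase, had 62.2 in DSSPAR, 75.3 in DSS and 49.9 in CON, within 2-fold of CON in both. Its other probe sets gave log2 ratios of at least 0.98 and at least 1.14 for DSS against CON, against 0.60 for the one read. Of 8 fibroblast markers, all above the floor, 2 were at least 2-fold higher in DSS than in CON and 0 in DSSPAR, with summed intensities of 8168 in DSSPAR, 10859.5 in DSS and 5712 in CON. Their part in the C1ra values was not tested.

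Of the alternative pathway genes, Cfb, the protease of that loop, had 426 in DSSPAR, 418 in DSS and 249 in CON. Both colitis groups were close to each other and above CON, at 1.71-fold for DSSPAR and 1.68-fold for DSS. Cfp, properdin, which steadies the alternative convertase, depended on the probe set. The brighter of its 2 probe sets was flat at 38.6 in DSSPAR, 43.5 in DSS and 42.1 in CON, and the other had 51.2 in DSSPAR, 60.2 in DSS and 5.81 in CON, a log2 ratio of at least 1.26 for DSS against CON and 1.03 for DSSPAR against CON.

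The receptor for the C3a fragment, C3ar1, had 58.5 in DSSPAR, 90.0 in DSS and 30.2 in CON. It was 2.98-fold higher in DSS and 1.94-fold higher in DSSPAR than in CON, with DSSPAR between the others. Its other probe sets gave smaller log2 ratios, with CON under the floor. They read at least 1.15 and at least 0.68 for DSS against CON, against 1.57 for the one read. For DSSPAR against CON they read at least 0.59 and at least 0.05, against 0.95. C5ar1, the C5a receptor of neutrophils and macrophages, had 18.9 in DSSPAR, 32.5 in DSS and 7.87 in CON, which gives at least 1.30-fold for DSS against CON, since CON and DSSPAR lay under the floor. The summed intensity of 9 neutrophil markers was 2519 in DSSPAR, 3221 in DSS and 118 in CON, with 3 of 6 measured at least 2-fold higher in DSS than in CON, and Cxcr2, Csf3r and Camp under the floor on all arrays. Their part in the receptor values was not tested.

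Among inhibitors, Cd55, the membrane protein that breaks up C3 convertases, had 341 in DSSPAR, 416 in DSS and 209 in CON. It was 1.99-fold higher in DSS than in CON, just short of 2-fold, and its other probe sets gave log2 ratios of 1.11 and 1.36. For DSSPAR against DSS these gave -0.03 and -0.89 in turn, against -0.28 for the one read. C4bp, a plasma cofactor that inactivates C4b, had 171 in DSSPAR, 155 in DSS and 102 in CON, higher than CON by 1.67-fold in DSSPAR and 1.52-fold in DSS. Cd59a, which blocks the terminal complex on the cell surface, had 94.9 in DSSPAR, 143 in DSS and 128 in CON, and its probe sets took opposite sides for DSS against CON. Cfi, the protease that cleaves C3b, had 10.6 in DSSPAR, 19.3 in DSS and 32.2 in CON, above the floor in CON alone.

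Vwf, Pros1 and Thbd had DSS highest and DSSPAR close to CON. They are set together here by this order and do not stand for vessel wall genes as a class. Plat, given below, was high in both colitis groups. Vwf, the factor that tethers platelets, had 42.9 in DSSPAR, 76.5 in DSS and 33.8 in CON. It was 2.26-fold higher in DSS than in CON and 1.79-fold lower in DSSPAR than in DSS. Pros1, protein S, the cofactor of activated protein C, had 104 in DSSPAR, 172 in DSS and 101 in CON. Thbd, thrombomodulin, which turns thrombin toward protein C, had 124 in DSSPAR, 182 in DSS and 123 in CON. In the order Vwf, Pros1 and Thbd, DSSPAR lay within 1.27-fold, 1.03-fold and 1.01-fold of CON. Of 9 measured endothelial markers 3 were at least 2-fold higher in DSS than in CON, none was in DSSPAR against CON, and 2 were past 2-fold on the lower side in DSSPAR against DSS. Their summed intensity, over all 10 listed and with Tie1 under the floor on all arrays, was 475 in DSSPAR, 798 in DSS and 486 in CON, and the 7 exocrine pancreas markers named above were likewise high in the DSS colon alone, past 2-fold against both CON and DSSPAR. The part of either in the Vwf, Pros1 and Thbd values was not tested.

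F13a1, the catalytic subunit of the enzyme that cross-links fibrin, had 173 in DSSPAR, 201 in DSS and 96.0 in CON. Both colitis groups stood above CON, at 1.80-fold in DSSPAR and 2.10-fold in DSS. It is made by macrophages and megakaryocytes. Of the 4 platelet and megakaryocyte markers above the floor on any colon array none passed 2-fold in a colon comparison, with Gp9, Gp6 and Treml1 under the floor on all arrays. The summed intensity of the 7 on the array was 369 in DSSPAR, 319 in DSS and 274 in CON. F3, tissue factor, which starts clotting on injured tissue, was level at 265 in DSSPAR, 301 in DSS and 305 in CON. Tfpi, the inhibitor of tissue factor, had 85.8 in DSSPAR, 111 in DSS and 100.4 in CON. F3 did not differ between groups by more than the probe set spread. The probe set read for Tfpi did so for DSSPAR against DSS alone, at a log2 ratio of -0.37, while its other 3 gave 0.45, 0.81 and at least 0.49 for DSS against CON, all beyond the spread of 0.38, and 1 of them 0.78 for DSSPAR against CON. Tfpi2, a related inhibitor of plasmin and other proteases, was the one member at least 2-fold lower in the DSS colon. It had 62.2 in DSSPAR, 34.5 in DSS and 78.2 in CON, 2.27-fold lower in DSS than in CON, and 1.26-fold lower in DSSPAR than in CON.

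The fibrinolysis genes split. Plat, tissue plasminogen activator, had 154 in DSSPAR, 161 in DSS and 59.6 in CON. It was high in both colitis groups, by 2.59-fold in DSSPAR and 2.70-fold in DSS against CON. Plaur, the urokinase receptor of leukocytes and wound epithelium, had 51.8 in DSSPAR, 87.8 in DSS and 38.7 in CON. It was 2.27-fold higher in DSS than in CON and 1.70-fold lower in DSSPAR than in DSS. Plau itself lay under the floor on all 3 arrays.

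**Figure D1:**
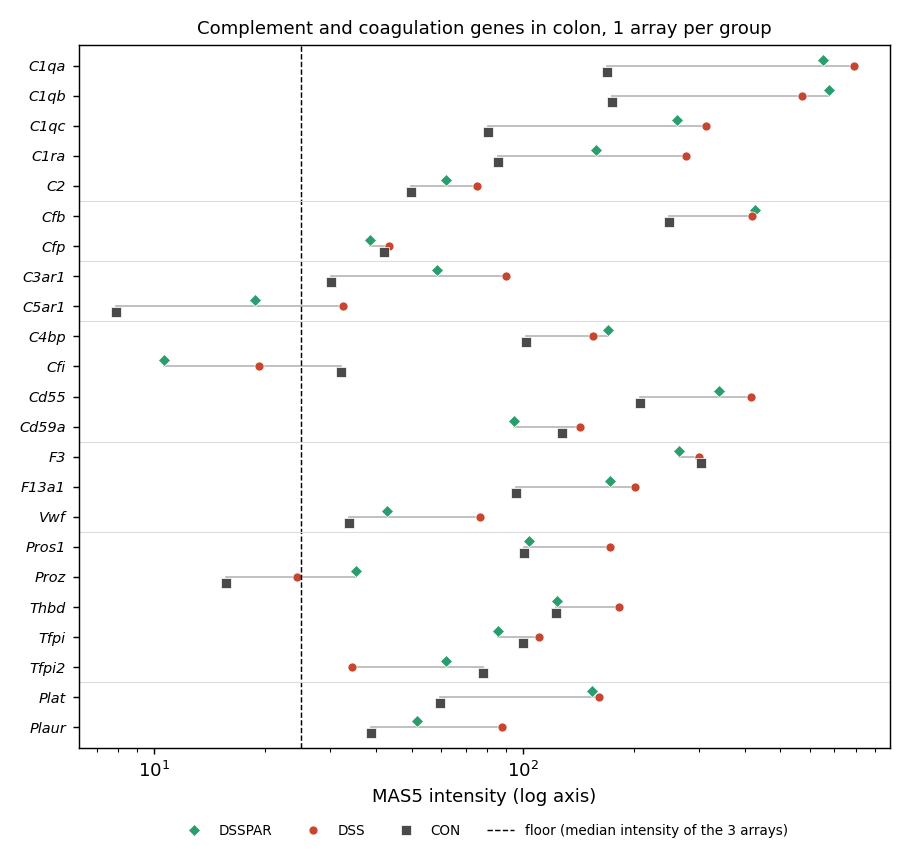
Intensity (log axis) of the 23 members above the floor on at least 1 colon array, in DSSPAR (diamonds), DSS (circles) and CON (squares), 1 array each, with the floor at 25.1 as a dashed line. C1qa, C1qb, C1qc and Plat have both colitis arrays at least 2-fold right of CON, whereas Vwf, Pros1 and Thbd have DSSPAR beside CON. Positions compare arrays within a gene, not genes with each other.

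Setting DSSPAR beside DSS in colon asks how the colitis differed under the parsley diet. None of 22 members measured was 2-fold higher (0.392% of 11730 genes were) and none 2-fold lower (1.24% of genes were). There is no test and no interval for this comparison of 2 pools, so the count does not show that the groups were alike. The median log2 ratio was -0.28, against -0.01 over all genes, and 17 of the 22 lay below DSS. By the probe set spread of 0.34, 9 lay below and 2 above, the members above being Tfpi2 (0.85) and Proz (at least 0.50). Together these are 50.0% of the members, against 28.4% of all genes. Proz, and C5ar1 among those below (at most -0.38), each had 1 of the 2 arrays under the floor. Their sides in these counts were therefore fixed. The widest ratios downward were those of Vwf (-0.84), C1ra (-0.81), Plaur (-0.76) and Pros1 (-0.73). With arrays centred on their medians the median log2 ratio of these members was -0.080.

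In DSSPAR against CON, 4 of 22 members were at least 2-fold higher, where 3.51% of 11808 genes were, and none was lower, where 2.10% of genes were. These were the C1q chains and Plat. The median log2 ratio was 0.46 over the members, 0.76 over complement and 0.03 over clotting, against 0.03 over all genes. The calls of Plat ended with the floor at the 75th percentile (log2 ratios of 0.63 in DSS and 0.57 in DSSPAR against CON) and with the mean over probe sets (0.41 and 0.81). With the higher floor F13a1 (0.95 in DSS) also fell short of 2-fold, and C3ar1, Plaur, Tfpi2 and Vwf were no longer measured in DSS against CON, which left C1qa, C1qb, C1qc and C1ra as the 4 members called there.

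Liver carries nearly the whole list. By the probe set read for each gene, 46 of the 49 genes lay above the floor on at least 1 liver array, and C5ar1, Vwf and Plat on none. The other probe set of Plat passed the floor in CON alone, at 107. The comparison of DSS with CON in liver asks how the organ that makes these plasma proteins differed in mice with colitis. Of 46 members measured, 5 were at least 2-fold higher in DSS, where 4.73% of 13034 genes were, and none was lower, where 4.20% of genes were. All 5, Mbl1, C1qc, Cd55, C1qb and Cfp, were complement genes, out of 22 of that part, and none of 21 clotting genes passed 2-fold. The median log2 ratio was 0.27 over the members, 0.42 over complement and 0.25 over clotting, against -0.02 over all genes. Beyond the probe set spread of 0.49 there were 18 members above and 4 below, 47.8% of the members against 37.3% of all genes. Of those below, C3ar1 had its DSS value under the floor, which fixed its side.

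Mbl1, a mannose-binding lectin that starts the lectin pathway, had the highest ratio. Its intensity was 18332 in DSSPAR, 44201 in DSS and 17456 in CON. DSS stood alone, 2.53-fold above CON, and DSSPAR was 2.41-fold lower than DSS and within 1.05-fold of CON. With quantile normalization the ratio of DSSPAR to DSS was -0.997 on the log2 scale, just short of 2-fold. Mbl2, the other mannose-binding lectin gene, had 36096 in DSSPAR, 40954 in DSS and 30011 in CON, 1.36-fold higher in DSS and 1.20-fold higher in DSSPAR than in CON. The lectin proteases ran otherwise. Masp1 had 6828 in DSSPAR, 4302 in DSS and 4482 in CON and Masp2 4992 in DSSPAR, 3358 in DSS and 3404 in CON. For both, DSSPAR was the highest array by the probe set read, and DSS lay within 1.04-fold and 1.01-fold of CON. Their other probe sets differed, at log2 ratios of DSSPAR against DSS of -0.29 to 0.35 for Masp1 and 0.04 for Masp2. A Masp1 probe set had DSSPAR lowest, at 1191 against 1455 in DSS and 1548 in CON. The other Masp2 probe set had DSS above CON, at a log2 ratio of 0.37.

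C1q was higher in liver too. C1qa had 3872 in DSSPAR, 4385 in DSS and 2328 in CON, C1qb 2952 in DSSPAR, 3813 in DSS and 1750.4 in CON and C1qc 2807 in DSSPAR, 3258 in DSS and 1353 in CON. The order of the arrays was the same for each chain, with DSS highest, DSSPAR next and CON lowest. Against CON the folds were 1.88-fold, 2.18-fold and 2.41-fold in DSS and 1.66-fold, 1.69-fold and 2.07-fold in DSSPAR, for C1qa, C1qb and C1qc in turn. The mean over its probe sets took C1qb to a log2 ratio of 0.90 in DSS, short of 2-fold.

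Properdin (Cfp), made by myeloid cells, had 902 in DSSPAR, 1092 in DSS and 511 in CON. Through this probe set it followed C1q, at 1.77-fold above CON in DSSPAR and 2.14-fold in DSS, and its call also ended with the mean over probe sets (0.40). The other, fainter probe set had 135 in DSSPAR, 39.0 in DSS and 47.9 in CON. There DSSPAR alone passed the floor, at a log2 ratio of at least 0.49 against DSS. Macrophage markers were higher in the same arrays: 5 of 10 at least 2-fold in DSS and 3 in DSSPAR against CON, with none lower, none under the floor on all arrays and summed intensities of 26009 in DSSPAR, 27710.1 in DSS and 14987 in CON. Of 6 markers of Kupffer cells, the liver's resident macrophages, 4 were at least 2-fold higher in DSS and 3 in DSSPAR, with sums of 22223.5 in DSSPAR, 32794 in DSS and 13925 in CON and none under the floor. For 9 neutrophil markers, of which Cxcr2 lay under the floor on all arrays, the liver sums were 8925 in DSSPAR, 23591 in DSS and 1249 in CON, with 3 of 6 measured at least 2-fold higher in DSS. The part of these cells in the C1q and Cfp values was not tested.

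C1ra and C2, which hepatocytes also make, behaved unlike C1q. C1ra had 7626 in DSSPAR, 3985 in DSS and 4174 in CON, with DSS beside CON and DSSPAR 1.83-fold above CON. C2 had 4009 in DSSPAR, 2619 in DSS and 2489.6 in CON, again with DSSPAR highest, 1.61-fold above CON. Cfb stood at 15299 in DSSPAR, 10870.5 in DSS and 8321 in CON, higher than CON by 1.84-fold in DSSPAR and 1.31-fold in DSS.

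The terminal pathway genes did not move together. Hc, which encodes C5, had 31669.6 in DSSPAR, 26467 in DSS and 16213 in CON, 1.95-fold above CON in DSSPAR and 1.63-fold in DSS. C6, which binds C5b to begin the membrane complex, had 3867 in DSSPAR, 1755 in DSS and 2728 in CON. It was lowest in DSS, 1.55-fold below CON, and 2.20-fold higher in DSSPAR than in DSS. The 3 subunits of C8 took different sides. C8a had 39038 in DSSPAR, 47907 in DSS and 27374 in CON, highest in DSS. C8b was level at 10040.1 in DSSPAR, 9224 in DSS and 9717 in CON. C8g had 25273 in DSSPAR, 35786 in DSS and 43661 in CON, lower in both colitis groups, by 1.73-fold in DSSPAR and 1.22-fold in DSS. C9, which forms the pore, stayed within 1.19-fold of CON at 41844 in DSSPAR, 38286 in DSS and 35074 in CON.

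Of the inhibitors, Cd55 had 527 in DSSPAR, 986 in DSS and 439.8 in CON. DSS was 2.24-fold above CON, with the other probe sets at log2 ratios of 0.93 and 1.30. DSSPAR was 1.87-fold lower than DSS, but this differed between probe sets: of the others, 1 read -0.61 for DSSPAR against DSS and 0.32 against CON, and 1 read -0.19 against DSS and 1.11 against CON. C4bp had 34943 in DSSPAR, 31474 in DSS and 18309.8 in CON and Cfi 45589 in DSSPAR, 54008 in DSS and 32708 in CON. Both were higher in the colitis groups, C4bp by 1.91-fold in DSSPAR and 1.72-fold in DSS, Cfi by 1.39-fold and 1.65-fold in the same order. Cd59a had 4115 in DSSPAR, 6155 in DSS and 5450.4 in CON, lowest in DSSPAR. C3ar1 was faint, at 177 in DSSPAR, 86.5 in DSS and 162 in CON, and its probe sets took both sides of CON.

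The 3 fibrinogen chains took the same order of DSS over CON. Fga encodes the alpha chain, Fgb the beta chain and Fgg the gamma chain of the soluble precursor of fibrin, and fibrinogen is a known acute phase protein of liver. Fga had 61054 in DSSPAR, 72420.1 in DSS and 42433 in CON, Fgb 80642 in DSSPAR, 123502 in DSS and 67086 in CON and Fgg 60601 in DSSPAR, 100821 in DSS and 64958 in CON. DSS was the highest array for all 3 chains. They were 1.71-fold, 1.84-fold and 1.55-fold higher in DSS than in CON for Fga, Fgb and Fgg in turn, each short of 2-fold and each beyond the probe set spread. In DSSPAR they were 1.19-fold, 1.53-fold and 1.66-fold lower than in DSS, with the Fga difference inside the spread of 0.51. Against CON, DSSPAR was 1.44-fold higher, 1.20-fold higher and 1.07-fold lower.

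Because these 3 neighbouring genes were all highest in DSS, the bases just before their start sites are shown, 250 each, from RefSeq's GRCm38.p6 annotation, which held promoters of 38 of the listed genes. Fgg lies at chr3:83007474-83007723 on the + strand, Fga at chr3:83025903-83026152 on the + strand and Fgb at chr3:83049864-83050113 on the - strand, and each sequence is read 5′ to 3′ on the gene's own strand and ends at the base before the start. Capitals mark 3 motifs searched on both strands: CTGGGAA, the core of the type II interleukin-6 response element, TTGCNNAA for C/EBP factors and GTTAAT, a half-site of HNF1. No match overlapped another.
Fgg: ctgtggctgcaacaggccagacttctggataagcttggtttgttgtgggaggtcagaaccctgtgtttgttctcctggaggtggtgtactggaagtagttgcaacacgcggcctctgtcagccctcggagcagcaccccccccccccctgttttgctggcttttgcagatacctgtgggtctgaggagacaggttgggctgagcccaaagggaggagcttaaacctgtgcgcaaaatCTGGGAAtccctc
Fga: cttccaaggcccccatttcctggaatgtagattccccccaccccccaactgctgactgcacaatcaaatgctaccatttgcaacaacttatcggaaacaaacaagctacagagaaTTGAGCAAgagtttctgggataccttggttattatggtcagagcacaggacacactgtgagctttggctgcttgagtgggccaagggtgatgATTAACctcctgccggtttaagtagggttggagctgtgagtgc
Fgb: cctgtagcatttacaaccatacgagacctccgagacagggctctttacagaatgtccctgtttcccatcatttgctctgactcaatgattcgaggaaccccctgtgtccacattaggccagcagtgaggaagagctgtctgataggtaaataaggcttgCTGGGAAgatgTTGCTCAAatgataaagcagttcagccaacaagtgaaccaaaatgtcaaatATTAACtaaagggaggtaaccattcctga
The interleukin-6 element was found in Fgg (bases 13 to 7 before the start) and Fgb (91 to 85), and in 9.10% of 32851 promoter windows of the same length. The C/EBP letters were found in Fga (135 to 128, on the opposite strand) and Fgb (80 to 73), and in 9.56% of windows. The HNF1 half-site was found on the opposite strand in Fga (43 to 38) and Fgb (29 to 24), and in 6.43% of windows. Fgb thus held all 3 motifs, Fga 2 and Fgg 1. Of the 38 listed genes with promoters, 7 held the interleukin-6 element, 8 the C/EBP letters and 11 the HNF1 half-site, fibrinogen genes included. Those with the interleukin-6 element were C1ra, F9, Fgb, Fgg, Masp2, Tfpi and Tfpi2. In liver DSS against CON, C1ra, F9, Masp2 and Tfpi2 lay inside the probe set spread of 0.49, and Fgb, Fgg and Tfpi above it. A match is a description of letters and not a bound site, and its part in these values was not tested.

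The enzymes that lead to thrombin ran the other way from fibrinogen in DSSPAR against DSS. F9 had 15366 in DSSPAR, 8233 in DSS and 9433 in CON, F11 4015 in DSSPAR, 2284 in DSS and 2907 in CON and F7 5319 in DSSPAR, 3205 in DSS and 3903 in CON, the proteases of the intrinsic and tissue factor routes. DSSPAR was the highest array for all of these, with DSS slightly below CON. F10, the protease that cleaves prothrombin, had 16305 in DSSPAR, 9868 in DSS and 10426 in CON, and its cofactor F5 had 13488 in DSSPAR, 8712 in DSS and 7000.4 in CON. Both were highest in DSSPAR. The folds of DSSPAR over DSS were 1.87-fold for F9, 1.76-fold for F11, 1.66-fold for F7, 1.65-fold for F10 and 1.55-fold for F5, each beyond the probe set spread of 0.51 and none past 2-fold. The other probe sets of F10 gave smaller log2 ratios of 0.39 and 0.45, and that of F5 gave 0.87. None of 12 hepatocyte markers passed 2-fold in a liver comparison, and their median log2 ratio for DSSPAR against DSS was -0.46, with 9 of the 12 below DSS. Their summed intensity was 639432 in DSSPAR, 924932 in DSS and 773830 in CON, and their part in the clotting factor and fibrinogen values was not tested.

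Prothrombin itself was nearly level. F2 had 48812 in DSSPAR, 60085 in DSS and 48946 in CON, with DSS 1.23-fold above CON and DSSPAR close to CON. F13b, the carrier subunit of the cross-linking enzyme, had 20484 in DSSPAR, 26855 in DSS and 22565 in CON, and F12, which opens the contact route, had 9049.5 in DSSPAR, 7108 in DSS and 6822 in CON. Neither left CON by more than the spread. F3 had 275 in DSSPAR, 174 in DSS and 281 in CON, lowest in DSS, and F13a1 lay near the floor at 114 in DSSPAR, 101 in DSS and 95.4 in CON.

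The contact system genes parted. Klkb1, plasma prekallikrein, had 12246 in DSSPAR, 8212 in DSS and 11913 in CON, lowest in DSS. Kng1, the kininogen from which bradykinin is cut, had 57873 in DSSPAR, 62992 in DSS and 35758 in CON, 1.62-fold above CON in DSSPAR and 1.76-fold in DSS. Its other probe set read a log2 ratio of 0.12 for DSS against CON and 0.75 for DSSPAR against CON, so the DSS value rests on 1 probe set.

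Of the anticoagulants, Pros1 had 3596 in DSSPAR, 2076 in DSS and 1419 in CON. It was highest in DSSPAR, at 2.53-fold above CON and 1.73-fold above DSS. Proc, protein C, was near level at 19474 in DSSPAR, 15949 in DSS and 19289 in CON. Proz, protein Z, a cofactor for the inhibition of factor X, had 12923 in DSSPAR, 11676 in DSS and 8496 in CON, higher in both colitis groups. Thbd had 341 in DSSPAR, 508 in DSS and 320.5 in CON and Tfpi 552 in DSSPAR, 763 in DSS and 510.4 in CON. For both, DSS was highest and DSSPAR lay beside CON, though 1 of the 4 Tfpi probe sets read the other way (log2 ratio -0.68 for DSS against CON). Tfpi2 was level at 8364 in DSSPAR, 7411 in DSS and 7278 in CON.

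Of the fibrinolysis genes Plg, the precursor of plasmin, had 60225 in DSSPAR, 74753 in DSS and 50636 in CON. It was highest in DSS, 1.48-fold above CON, and DSSPAR lay between. Plaur had 163 in DSSPAR, 176 in DSS and 243 in CON, highest in CON, and Plau passed the floor in DSS alone, at 29.0 in DSSPAR, 103 in DSS and 91.1 in CON.

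**Figure D2:**
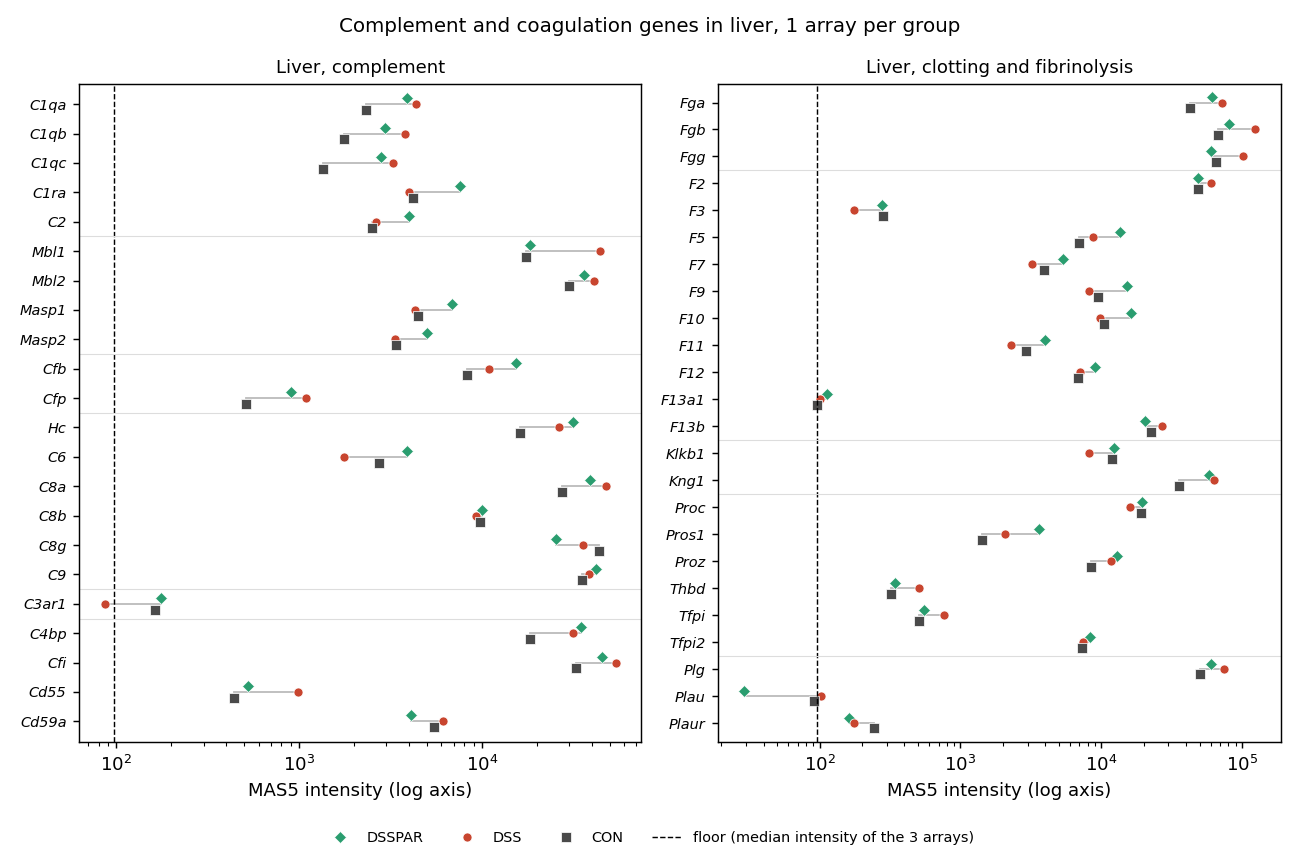
Intensity (log axis) of the 46 members above the floor on at least 1 liver array, complement on the left and clotting and fibrinolysis on the right, in DSSPAR (diamonds), DSS (circles) and CON (squares), 1 array each, with the floor at 96.6 dashed. Mbl1, Cd55 (through the probe set read), Fgb and Fgg have the DSS circle alone on the right, whereas C1ra, F5, F7, F9, F10, F11 and Pros1 have the DSSPAR diamond there.

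In DSSPAR against DSS in liver, 1 of 46 members (C6) was at least 2-fold higher, where 2.80% of 12398 genes were, and 1 (Mbl1) was lower, where 4.23% of genes were. The median log2 ratio was 0.13 over the members and 0.17 over clotting, against -0.02 over all genes, and it was -0.03 over complement, a value near 0 that changed sign with the floor, the scaling and the mean over probe sets. Within clotting the 10 measured clotting factors had a median of 0.65 and the fibrinogen chains one of -0.61. Beyond the spread lay 14 members above and 6 below, 43.5% of the members against 34.2% of all genes. C3ar1 was among those above, its side fixed by a DSS value under the floor.

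In DSSPAR against CON, 2 of 45 members (Pros1 and C1qc) were at least 2-fold higher, where 3.26% of 12721 genes were, and none was lower, where 3.45% of genes were. The share of members called was thus near that of all genes. The median log2 ratio was 0.45 over the members, 0.53 over complement and 0.27 over clotting, against -0.04 over all genes, and 38 of the 45 lay above CON. Centring the arrays on probe sets above the floor (0.99) or quantile normalization (0.99) took C1qc just short of 2-fold. Centring on the array medians moved the count to 12 higher.

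**Figure D3:**
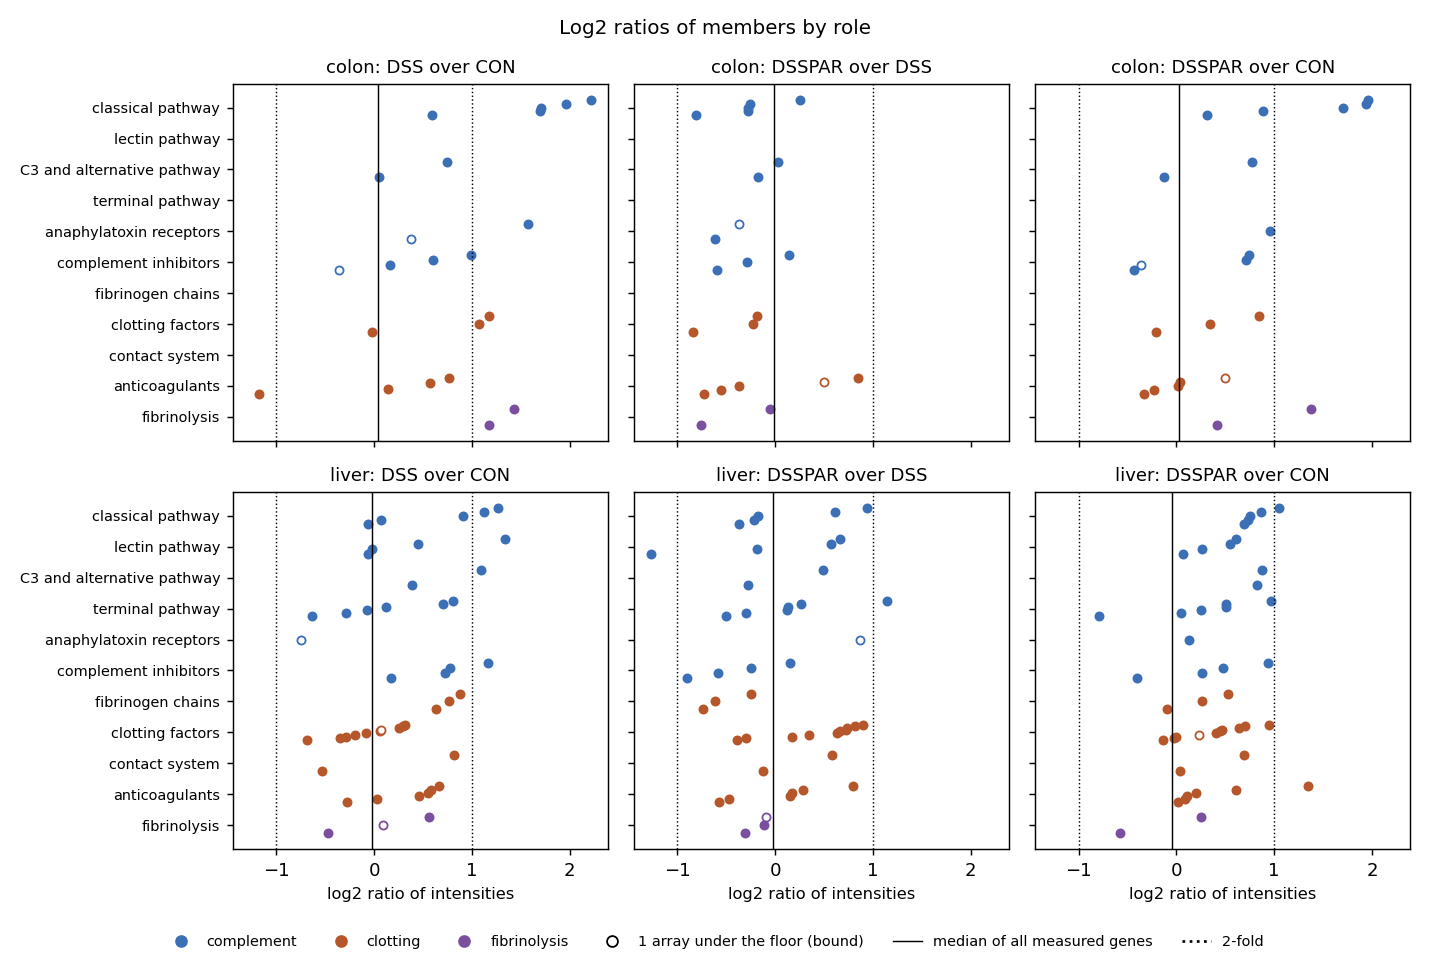
Log2 ratio of intensities for each measured member, 1 point each, by role, for colon (upper row) and liver (lower row) and the 3 comparisons, with dotted lines at 2-fold, a solid line at the median of all measured genes and open points where 1 array lay under the floor. The C1q chains stand right of the 2-fold line in colon for DSS and for DSSPAR over CON, and in liver DSSPAR over DSS most clotting factors lie right of 0 and the fibrinogen chains left of it.

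Where a gene had several measured probe sets they took 1 side of CON in DSS in 6 of 7 such members in colon and in 6 of 12 in liver. The split members were Cd59a in colon and C2, C3ar1, F10, F5, Masp2 and Tfpi in liver. In DSSPAR set beside DSS, 6 of 7 in colon and 8 of 13 in liver took 1 side, and beside CON 5 of 7 and 10 of 13.

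**Figure D4:**
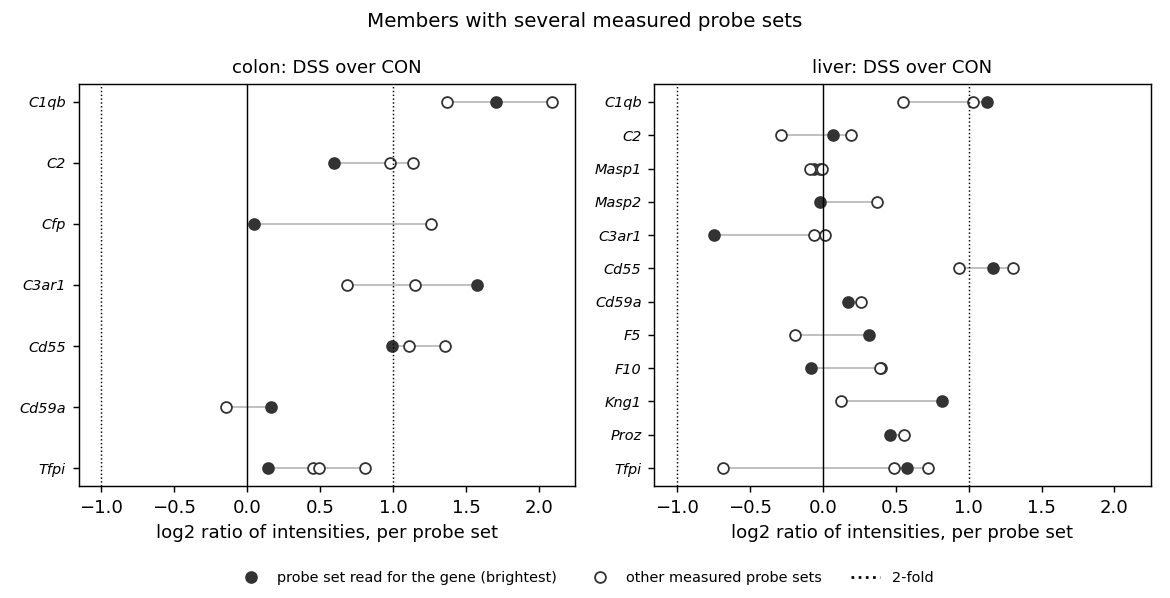
Log2 ratio of DSS over CON for each measured probe set of the members that have several, in colon (left) and liver (right); filled points are the probe sets read for the gene, open points the others, and dotted lines mark 2-fold. C1qb and Cd55 keep all points right of 0 in both tissues, while Cfp in colon and Tfpi in liver spread widely.

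Other genes of the same cascades, from lists of 29 complement, 20 clotting and 8 fibrinolysis genes, were read for comparison, 20, 17 and 5 of them on the array. In colon, 6 of 14 measured other complement genes passed 2-fold upward in DSS over CON and 1 was lower, against 3 higher and 1 lower of 13 in DSSPAR. Among them were Serping1, the inhibitor of C1r and C1s, with 726 in DSSPAR, 1202 in DSS and 439.7 in CON, and C1s1, the second C1 protease, with 392 in DSSPAR, 657 in DSS and 269 in CON. Both took the order of C1ra, highest in DSS. Itgb2, the shared chain of the leukocyte complement receptors, had 111 in DSSPAR, 159 in DSS and 40.5 in CON. Itgax, which pairs with it, had 84.6 in DSSPAR, 81.6 in DSS and 33.1 in CON, with both colitis groups above CON. None of 9 other clotting and none of 4 other fibrinolysis genes passed 2-fold in DSS against CON or in DSSPAR against CON, where 7 and 4 were measured. Over all genes in colon, 5.18% were higher and 1.97% lower in DSS against CON, and 3.51% and 2.10% in DSSPAR against CON. With lists this short, finding none says little about these clotting and fibrinolysis genes.

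In liver, none of 17 other complement genes was at least 2-fold higher in DSS than in CON and 1 was lower. Of 14 other clotting genes 2 were higher. Over all genes in liver, 4.73% were higher and 4.20% lower in this comparison. A2m, a broad protease inhibitor of plasma, had 135 in DSSPAR, 2042 in DSS and 157 in CON, with DSS at a log2 ratio of 3.70 above CON and DSSPAR 15.1-fold lower than DSS. Serpina10, the inhibitor of factor X that works with protein Z, had 34534 in DSSPAR, 40552 in DSS and 11754 in CON, 2.94-fold above CON in DSSPAR and 3.45-fold in DSS. In DSSPAR against DSS, no other complement or clotting gene was 2-fold higher, where 2.80% of all genes were and 4.23% were lower. Lower were A2m and Cfhr2, a relative of complement factor H, the second by 2.35-fold. Vsig4, a complement receptor of Kupffer cells, had 6497 in DSSPAR, 5485 in DSS and 3148 in CON, with DSSPAR the highest, where DSS was highest for the C1q chains.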

How the data were processed

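RNA pooled from 7 mice per group was read on 1 array for each group and tissue. The authors deposited linear intensities for each probe set, produced by MAS5 per the submitters' processing notes. Neither its version nor the scaling target is given in the sources. Columns were matched to samples by accession, with 0 left unused. Of 45101 probe sets, 34958 carried 1 gene symbol in the platform annotation, 932 several and 9211 were not listed; only the first kind was used.

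Each gene was represented by its brightest probe set (mean of log2 values over the 3 arrays of a tissue), and values under the tissue's median were raised to it. Log2 ratios were computed over all genes, and genes past 2-fold were counted. No test was run, since there is 1 array per group. Every member is accounted for and most are named with their values, by the rule that names those past 2-fold, those with split probe sets and the main genes of each role; the remaining measured members were added after their values were seen. The members, lists and rules were chosen with earlier results of these data known. The calculation was checked on simulated data. Python 3.11.15, NumPy 2.4.6, pandas 2.3.3, SciPy 1.17.1 and matplotlib 3.10.9 were used.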

Additional observations from a re-analysis of the deposited data

Results flagged for a closer look

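Of the members, 4 passed 2-fold in 1 tissue and lay on the other side of CON in the other tissue for DSS against CON; with 1 array per group the difference between tissues was not tested. C3ar1 had a log2 ratio of 1.57 in colon and at most -0.74 in liver, where the DSS value lay under the floor. This makes a difference of at least 2.32, but between different probe sets, since each tissue was read through its brightest. The probe set read in colon gave -0.06 in liver, and the remaining one gave 0.02 there. C1ra had 1.69 in colon and -0.07 in liver, a difference of 1.76. Plaur had 1.18 in colon and -0.47 in liver, a difference of 1.65. Tfpi2 had -1.18 in colon and 0.03 in liver, a difference of -1.21. The liver values of C1ra, Plaur and Tfpi2 lie inside the probe set spread of 0.49.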

How the results depend on the processing

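The counts and medians depended on the floor and on the scaling. In colon, DSS against CON gave 4 members higher and 0 lower with the floor at the 75th percentile or a 3-fold threshold, 14 and 10 with no floor (median log2 ratio 0.23), and medians of 0.84 with arrays centred on their medians and 0.93 with the mean over probe sets. DSSPAR against DSS gave 4 higher and 5 lower with no floor, and 1 higher (median -0.080) with arrays centred on their medians or a median of -0.19 centred on probe sets above the floor. DSSPAR against CON gave 8 higher and 8 lower with no floor (median 0.21, clotting -0.095, reversed), 9 higher (median 0.68) with centred arrays, and medians of 0.71 with the higher floor, 0.64 with quantile normalization and 0.60 with the mean over probe sets. With no floor, genes whose values all lie near background enter. In liver, DSS against CON gave 1 lower with no floor, 3 higher with the mean over probe sets, 0 at 3-fold, and medians of 0.39 (higher floor), 0.42 (centred arrays), 0.16 (quantile) and 0.37 (without probe sets of shared type, whose identifiers end in _s_at, _x_at or _a_at). DSSPAR against DSS gave 2 higher and 2 lower with no floor, 4 higher (median 0.29) with centred arrays, 2 higher and 0 lower (median 0.28) with quantile normalization, and 0 and 0 at 3-fold; its complement median of -0.03 became 0.12 with no floor, 0.13 with centred arrays, 0.17 with quantile normalization and 0.13 with the mean over probe sets. DSSPAR against CON gave 1 lower with no floor (median 0.27), 12 higher with centred arrays (median 0.75), 1 higher centred on probe sets above the floor (median 0.38), 4 higher with quantile normalization and 0 at 3-fold. Plaur was not measured without probe sets of shared type. Of 1362 single-member values under these alternatives 1335 moved by less than the probe set spread, 27 moved further and 0 of the called ones changed side. Only members still measured under an alternative were counted, so those that dropped out are not among the moved. Part of this outcome was fixed in advance. Centring changes ratios above the floor by 1 amount per comparison, smaller than the spread. A member with 1 probe set cannot move under the mean over probe sets. No paired analysis was possible because each group has 1 array per tissue. The cause of these shifts was not tested.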
